A study of Mus musculus with 34 samples.

Results

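The nuclear pore complex and the carriers that move proteins and RNA through it were followed in mouse splenic B cells at rest and after activation. The genes were chosen by symbol alone: every row of the deposited RNA table whose symbol begins with Nup and a digit, with Kpna or Kpnb, or with Ipo or Xpo and a digit. This rule finds 41 of 23812 rows, namely nucleoporins (Nup genes, the proteins of the pore), importins (Kpna, Kpnb1 and Ipo genes, which carry proteins into the nucleus) and exportins (Xpo genes, which carry cargo out). Some pore proteins and carriers have other names (Sec13, Tpr, Cse1l, Xpot) and were kept in lists of their own.

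The cells came from spleens of C56BL/6J mice (strain as spelled in the series text) of 6 to 8 weeks of age, with no allele or transgene named. B cells were obtained by magnetic depletion as the CD43-negative fraction. Activated cells spent 3 days in culture with lipopolysaccharide (LPS), a molecule of the outer bacterial membrane that Tlr4 on B cells detects. Its dose was 10 µg per ml in the treatment field, while the growth field gives another volume unit. Resting cells are so named in their titles and sources, but the growth and treatment fields of those samples describe LPS too, which leaves their handling unclear.

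RNA was sequenced in 2 resting and 2 activated samples. Lists of open chromatin (FAIRE-seq), enhancer activity in a reporter plasmid (STARR-seq), the histone marks H3K27ac and H3K4me3, and chromosome contacts (Hi-C) were also used. Each was 1 pooled list from activated cells. They therefore describe the loci in activated cells and allow no comparison with rest. H3K27ac was also sequenced in resting cells, but no list from those was used here. Titles of the STARR-seq samples give 12 or 24 hours, which the 1 list of peaks does not tell apart.

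The nuclear pore is a ring-shaped channel in the nuclear envelope built from many copies of each nucleoporin. Scaffold proteins of the Y complex and the inner ring hold its shape, and nucleoporins rich in phenylalanine-glycine repeats fill the channel and bind passing carriers. Importin alpha proteins recognise a nuclear localisation signal on a cargo and are themselves bound by importin beta 1, the Kpnb1 product. Other members of the importin beta family, exportins among them, bind cargo directly, and the small GTPase Ran, loaded with GTP inside the nucleus, sets the direction of transport. LPS-activated B cells grow and divide before many of them become antibody-secreting cells, and dividing cells must build pores for both daughter nuclei.

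Promoter sequences are shown for 5 genes, because 4 of them (Kpna2, Kpnb1, Ipo7 and Nup62) are carriers and a pore protein among the results below with at least a 2-fold rise, while the other, Kpna4, is an importin alpha gene like Kpna2 but did not pass the test. Each runs 5′ to 3′ on the gene's own strand over the 250 bases before the start of the gene, taken from RefSeq on GRCm38.p6. Capitals mark a CCAAT box (or ATTGG, the same box on the other strand), the E-box CACGTG, or GCGCATGCGC, the palindromic site of the factor NRF1. The regions were chr11:106999526-106999775 (minus strand) for Kpna2, chr3:69127093-69127342 (minus) for Kpna4, chr11:97187893-97188142 (minus) for Kpnb1, chr7:110018065-110018314 (plus) for Ipo7 and chr7:44815838-44816087 (plus) for Nup62.
Kpna2: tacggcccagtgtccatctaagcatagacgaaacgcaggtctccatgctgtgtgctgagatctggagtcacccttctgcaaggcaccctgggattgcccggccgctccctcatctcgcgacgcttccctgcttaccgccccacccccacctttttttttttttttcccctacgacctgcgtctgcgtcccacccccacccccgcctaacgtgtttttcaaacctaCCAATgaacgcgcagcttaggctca
Kpna4: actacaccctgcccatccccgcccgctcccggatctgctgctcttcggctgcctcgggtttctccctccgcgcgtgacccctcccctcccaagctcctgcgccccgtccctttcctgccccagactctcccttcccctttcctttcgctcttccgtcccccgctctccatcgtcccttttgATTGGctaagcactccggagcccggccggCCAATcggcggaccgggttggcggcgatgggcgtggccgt
Kpnb1: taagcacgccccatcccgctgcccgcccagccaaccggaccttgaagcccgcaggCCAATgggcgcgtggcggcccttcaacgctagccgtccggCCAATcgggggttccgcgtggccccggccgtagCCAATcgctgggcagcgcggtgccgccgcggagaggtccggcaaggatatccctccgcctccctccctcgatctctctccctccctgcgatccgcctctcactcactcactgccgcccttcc
Ipo7: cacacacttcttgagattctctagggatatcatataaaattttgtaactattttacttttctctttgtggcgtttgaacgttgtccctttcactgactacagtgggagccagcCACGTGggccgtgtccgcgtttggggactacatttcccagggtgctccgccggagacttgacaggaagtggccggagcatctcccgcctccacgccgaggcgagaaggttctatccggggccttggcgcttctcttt
Nup62: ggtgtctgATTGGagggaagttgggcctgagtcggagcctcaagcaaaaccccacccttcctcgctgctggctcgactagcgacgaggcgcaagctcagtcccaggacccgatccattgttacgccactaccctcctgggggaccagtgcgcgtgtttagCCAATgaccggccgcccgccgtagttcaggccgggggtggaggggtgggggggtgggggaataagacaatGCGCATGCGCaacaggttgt
Kpna2 had a CCAAT box that began 25 bases before the start, and Kpnb1 had 3 boxes. In Ipo7 the capitals are an E-box at 137 bases before the start. Nup62 had both CCAAT boxes and the NRF1 site, the latter 20 bases before the start. The promoter of Kpna4 held 2 CCAAT boxes, so this box was present both in an importin alpha gene that rose and in another that did not pass the test.

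RNA values are treated as FPKM, fragments per kilobase scaled by library size, a level per length that can be compared between genes. Differences are activated minus resting on the log2(FPKM + 1) scale with their standard error (SE), which understates the change of low genes. A gene was called when its Benjamini-Hochberg adjusted p from limma over all 10863 tested genes was under 0.05. Nothing in the labels says that the samples came from separate mice, so p-values measure the spread between these samples only. The table gives no read totals and the depth is unknown, but the step size of low values puts activated replicate 2 at 1.6 times the depth of activated replicate 1 and resting replicate 2 at 0.97 times that of resting replicate 1.

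The samples were checked against markers of B cells and of other spleen cells. The B cell markers Cd79a, Cd79b, Ms4a1 and Pax5 were present in every sample. Cd79a, a chain of the B cell receptor complex, had 766 and 706 FPKM at rest and 530.1 and 417 after activation and did not pass the test (−0.64 ± 0.253, adjusted p = 0.0679). Pax5, the B cell identity factor, had 95.9 and 93.8 FPKM at rest and 35.4 and 34.9 after activation (−1.41 ± 0.172, adjusted p = 0.000866), and Cd79b and Ms4a1 were also called lower. The 7 macrophage markers summed to 442 and 784 FPKM in the resting samples and to 0.556 and 7.01 in the activated ones, where C1qa and C1qb were at 0, and 6 of 7 were called lower. Without Lyz2, which alone was at 57 and 363 FPKM at rest, the sums were 385 and 421 against 0.288 and 0.503. The 5 T cell markers summed to 9.94 and 14.9 at rest and to 0.027 and 0.034 after activation. The resting sums came mostly from Cd4 (5.48 and 5.01) and Cd8a (4.21 and 6.01). Cd3e, Cd3d and Cd3g were at 0 after activation and were not tested. These Cd3 genes had 0.135, 0.0491 and 0.0668 FPKM in resting replicate 1, against 1.29, 1.05 and 1.495 in resting replicate 2. The 4 natural killer cell markers summed to 6.35 and 13.7 at rest and to 1.01 and 0.392 after activation, with 3 at 0. Resting replicate 2 stood apart in erythroid genes, whose sum was 8599 FPKM against 1018 in resting replicate 1, 12.1 and 5.31 in the activated samples. These values move with the groups, and their part in the results below was not tested. In such bulk samples, fewer cells of a type and less RNA per cell cannot be told apart.

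Of the 41 genes, 37 passed the filter of at least 1 FPKM in at least 2 samples. The 4 others were Kpna7 and Nup62cl, listed at 0 in every sample, Nup210l, at 0.880 and 0.789 FPKM at rest and 0.358 and 0.269 after activation, and the read-through row Nup62-il4i1, between 0.311 and 0.805. Among the 37, activation was accompanied by higher RNA of 26 genes, against a background of 28.2% of all tested genes called higher. None was called lower, where 26.2% of all tested genes were. At an unadjusted p under 0.05, 27 genes were higher (Nup98 added) and 1 lower (Kpna1), and limma without its trend and robust options called 24 higher and 0 lower. The median difference was 0.70, beside 0.03 over all tested genes. By class, 15 of 19 nucleoporins, 8 of 13 importins and 3 of 5 exportins were called higher, with median differences of 0.77, 0.70 and 0.50.

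Both activated samples lay above both resting ones for 31 genes, against 41.5% of all tested genes. The order was the opposite for Kpna1, Kpna4 and Ipo13, against a background of 39.1%, and the groups overlapped for Nup160, Ipo8 and Xpo6. A called rise of at least 2-fold on the log2(FPKM + 1) scale was found for 12 genes, against 14% of all tested genes. With 1 sample left out, 11 genes were called higher without resting replicate 1, 14 without resting replicate 2, 29 without activated replicate 1, and 18 higher with 1 lower without activated replicate 2. Over all tested genes the shares called higher in these fits were 16.9, 20.8, 27.3 and 21.7%. Each of these fits leaves a group with 1 sample, which is assumed to vary like the other group. Called exportins numbered 0 without resting replicate 2 and 1 without resting replicate 1 or activated replicate 2.

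**Figure D1:**
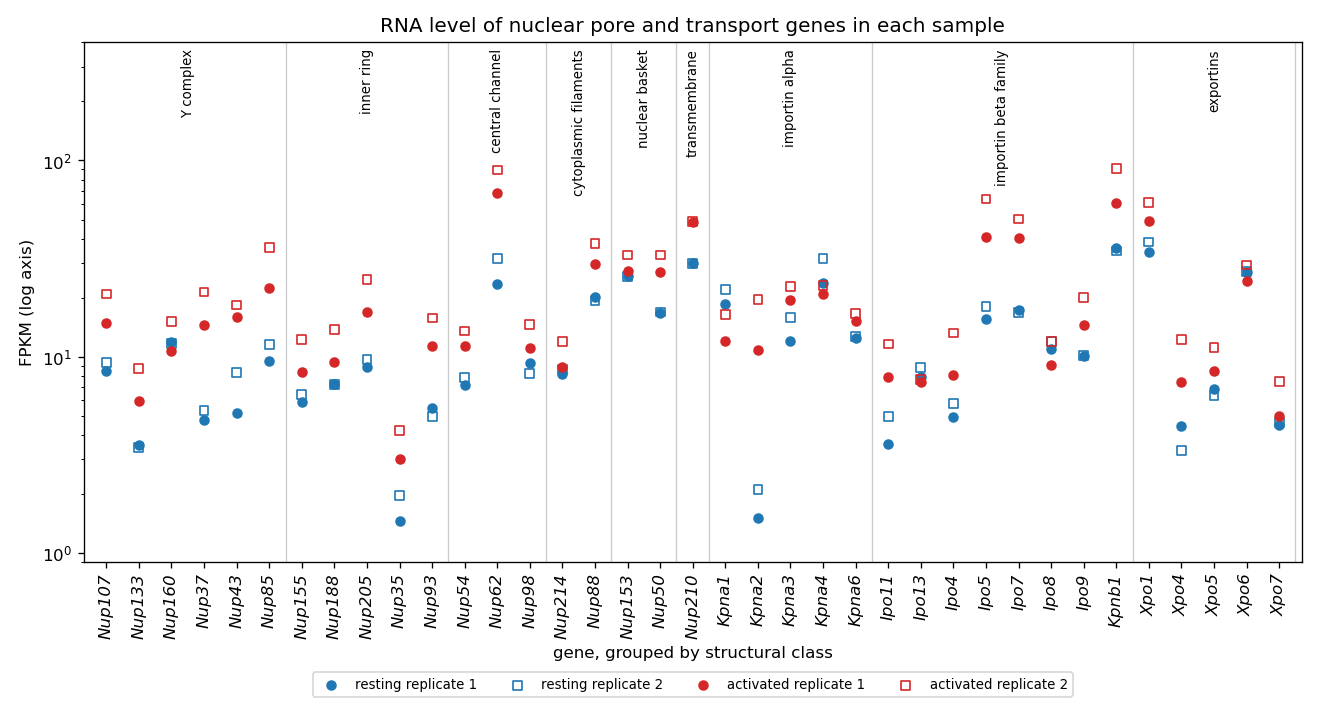
RNA level (FPKM, log axis) of each of the 37 tested genes in the 4 samples, grouped by class. Filled circles are replicate 1 and open squares replicate 2, blue at rest and red after activation. Red symbols lie above blue ones for 31 genes, with Kpna2 the widest apart.

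**Figure D2:**
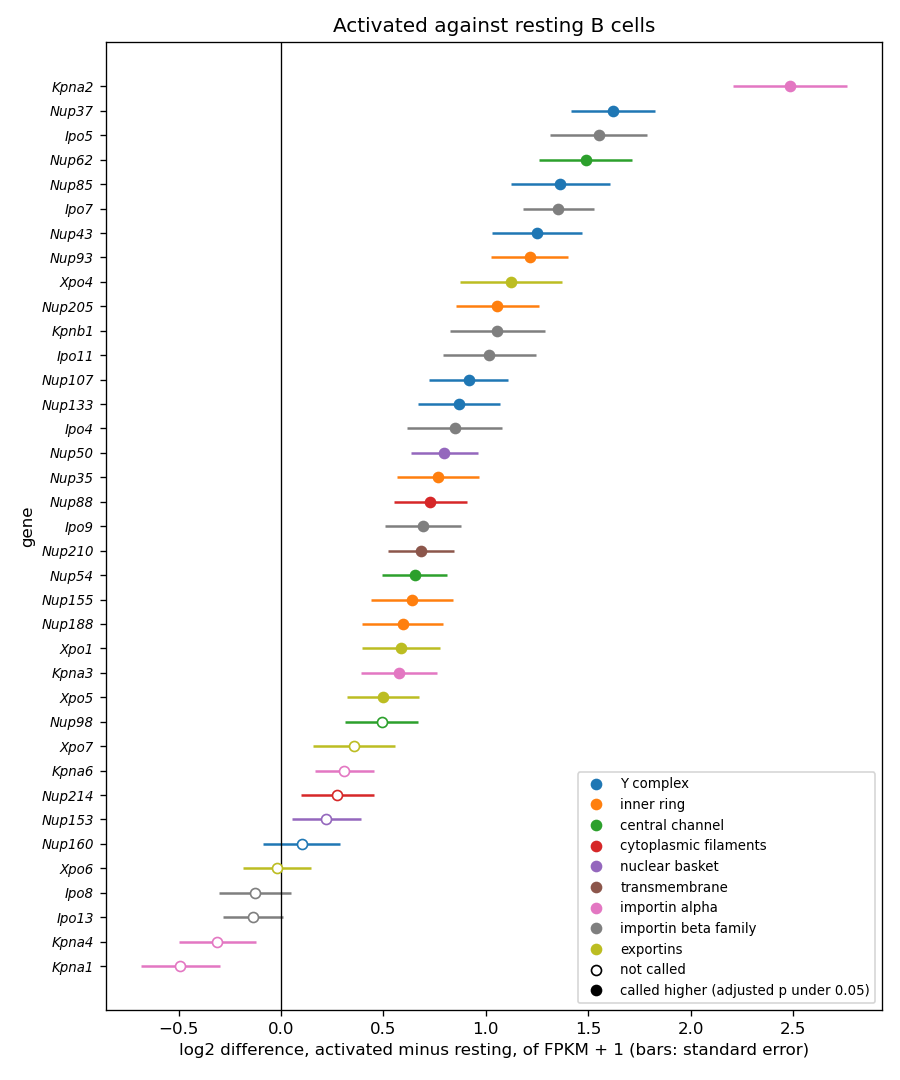
Difference between activated and resting cells on the log2(FPKM + 1) scale for the 37 genes, in order of size, with bars for the standard error. Filled symbols mark the 26 genes called higher. The 5 genes below 0 are Xpo6, Ipo8, Ipo13, Kpna4 and Kpna1, none of them called.

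The Y complex forms the outer rings of the pore scaffold, and in mitosis it also sits at kinetochores. Nup37 was at 4.78 and 5.31 FPKM at rest and at 14.4 and 21.4 after activation. It was 3.55 times as high by group means, a difference of 1.62 ± 0.206 (SE, adjusted p = 0.001). Nup85 was at 9.46 and 11.6 FPKM at rest and at 22.4 and 36.2 after activation (1.36 ± 0.242, adjusted p = 0.0038). In both genes the lower activated sample was above the higher resting one.

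Nup43 had 5.19 and 8.31 FPKM at rest and 15.9 and 18.4 after activation, a difference of 1.25 ± 0.220 (adjusted p = 0.00362). Nup107, which gives the complex its other common name, went from 8.42 and 9.33 to 14.9 and 20.9 FPKM (0.92 ± 0.192, adjusted p = 0.00744). Nup133 was lowest of the set, at 3.56 and 3.44 FPKM at rest and 5.94 and 8.74 after activation (0.87 ± 0.201, adjusted p = 0.0109). These 3 genes also had no overlap between the groups. Nup160, which joins the same complex, had 11.8 and 11.7 FPKM at rest and 10.7 and 15.1 after activation (0.10 ± 0.188, adjusted p = 0.667). Its activated samples lay on either side of the resting ones. Of the 6 Y complex genes within the symbol rule, 5 rose, beside 28.2% of all tested genes called higher. The median difference over the 6 was 1.08.

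The inner ring anchors the channel proteins to the scaffold. All 5 of its tested genes rose, beside 28.2% of all tested genes called higher, with a median difference of 0.77. Nup93, which holds the channel proteins in place, had 5.44 and 4.95 FPKM at rest and 11.3 and 15.7 after activation (1.21 ± 0.188, adjusted p = 0.00217). Nup205 had 8.87 and 9.69 FPKM at rest and 16.8 and 24.6 after activation (1.06 ± 0.203, adjusted p = 0.00523). Nup188, the paralogue of Nup205, changed less, from 7.22 and 7.18 to 9.36 and 13.8 FPKM (0.59 ± 0.198, adjusted p = 0.041), and the difference between the paralogues was not tested.

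Nup155 was at 5.85 and 6.44 FPKM at rest and at 8.35 and 12.3 after activation (0.64 ± 0.200, adjusted p = 0.0329). Nup35, which binds membranes, was the lowest tested nucleoporin, at 1.45 and 1.97 FPKM at rest and 3.02 and 4.22 after activation (0.77 ± 0.201, adjusted p = 0.0175). The groups did not overlap in any of the 5 inner ring genes. Nup188 was not called without resting replicate 1, resting replicate 2 or activated replicate 2, and Nup155 likewise. The call of Nup35 was lost without resting replicate 1 or activated replicate 2.

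In the central channel, Nup62 had the highest activated level of all nucleoporins within the symbol rule. It was at 23.4 and 31.6 FPKM at rest and at 68.3 and 89.4 after activation, 2.87 times as high by group means (1.49 ± 0.227, adjusted p = 0.00203). All 14387 bases of its row lie within the longer read-through row Nup62-il4i1, which spans 24434 bases. The Nup62 row also shares 239 bases with Atf5, which had 3.59 and 3.22 FPKM at rest and 67.2 and 32.1 after activation. No strand is stated for the counting, so reads of these overlapping rows cannot be told apart. Nup54, which forms a complex with Nup62, went from 7.18 and 7.82 to 11.3 and 13.5 FPKM (0.65 ± 0.158, adjusted p = 0.013). Nup98, whose transcript also encodes the Y complex protein Nup96, had 9.31 and 8.23 FPKM at rest and 11.1 and 14.6 after activation, without passing the test (0.49 ± 0.178, adjusted p = 0.0535).

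On the cytoplasmic side, Nup88 rose from 20.2 and 19.3 to 29.5 and 37.7 FPKM (0.73 ± 0.177, adjusted p = 0.0132). Its partner Nup214, which binds Xpo1, had 8.17 and 8.58 FPKM at rest and 8.89 and 12 after activation (0.27 ± 0.178, adjusted p = 0.228). On the nuclear side, the basket protein Nup50 rose from 16.6 and 16.9 to 27 and 33.0 FPKM (0.80 ± 0.165, adjusted p = 0.00701). Nup153, which anchors the basket and binds Nup50, had 25.7 and 25.6 FPKM at rest and 27.4 and 33.0 after activation (0.22 ± 0.167, adjusted p = 0.295). In both of these pairs 1 gene passed the test and the other did not, although neither pair was tested for the difference. Nup210, a protein of the pore membrane, had closely spaced replicates, at 30.1 and 29.7 FPKM at rest and 48.5 and 48.9 after activation (0.68 ± 0.160, adjusted p = 0.0114).

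The importin alpha genes showed the widest spread of any class. Kpna2, an importin alpha whose level is high in dividing cells of many tissues, was at 1.5 and 2.10 FPKM at rest and at 10.8 and 19.5 after activation. That is 8.44 times as high by group means and 2.49 ± 0.276 on the log2(FPKM + 1) scale (adjusted p = 0.000595), and it ranked 250 of 10863 tested genes by size of difference. Even the lower activated sample was far above the higher resting one. Kpna3 had 12 and 15.9 FPKM at rest and 19.5 and 22.7 after activation (0.58 ± 0.184, adjusted p = 0.0353), a call lost without resting replicate 1 or activated replicate 2.

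Kpna6 had 12.5 and 12.7 FPKM at rest and 15.1 and 16.6 after activation and did not pass the test (0.31 ± 0.144, adjusted p = 0.11). Kpna4 had 23.6 and 31.8 FPKM at rest and 20.9 and 23.0 after activation (−0.31 ± 0.190, adjusted p = 0.203). Kpna1 had 18.4 and 22.1 FPKM at rest and 12.1 and 16.4 after activation (−0.49 ± 0.193, adjusted p = 0.0677). In these 2 genes both activated samples were under both resting ones. Kpna1 was called lower without activated replicate 2, and also after rescaling to the same sum or by quantiles, while Kpna4 was called lower only by quantile normalization among the alternatives run.

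Since FPKM are per length, each gene's share of the summed importin alpha level could be computed. Kpna2 made up 2.20 and 2.48% of the sum at rest and 13.8 and 19.9% after activation. Kpna4 made up 34.7 and 37.6% at rest and 26.6 and 23.4% after activation, and Kpna1 27.1 and 26.1% against 15.4 and 16.7%. The share of Kpna3 was 17.6 and 18.8% at rest and 24.9 and 23.1% after activation. For these 4 genes the groups did not overlap, while those of Kpna6, 18.4 and 15% against 19.3 and 16.9%, did. The shares are given as values without a test; an exact permutation test of 2 samples against 2 cannot go below p = 0.333.

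The summed importin alpha level overlapped between the groups, at 68.0 and 84.5 FPKM at rest and 78.4 and 98.1 after activation. Without Kpna2 the sums were 66.5 and 82.4 against 67.6 and 78.6 FPKM. Relative to Kpnb1, the partner of all importin alpha proteins, the summed level was 1.90 and 2.44 times as high at rest and 1.30 and 1.07 times after activation, so the ratio was lower in both activated samples.

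**Figure D3:**
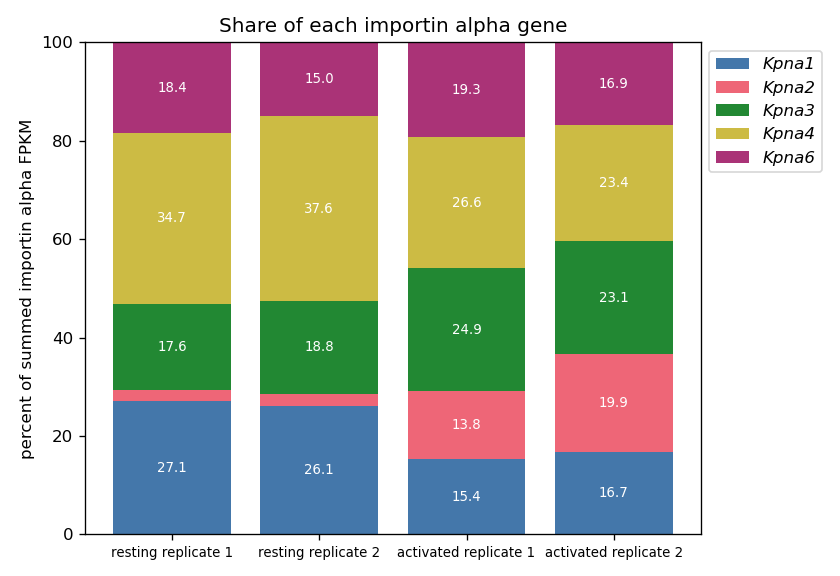
Share of each of the 5 tested importin alpha genes in their summed FPKM (percent) in each sample. Stacked bars add up to 100 in every sample. The red band of Kpna2 is 2.20 and 2.48% at rest and 13.8 and 19.9% after activation.

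Of the 8 importin beta family genes, 6 rose, beside 28.2% of all tested genes called higher. The median difference over the 8 was 0.93. Ipo5 and Ipo7, which carry ribosomal proteins and histones among other cargo, had the largest differences. Ipo5 was at 15.5 and 18.0 FPKM at rest and at 40.8 and 63.6 after activation (1.55 ± 0.236, adjusted p = 0.00203). Ipo7 was at 17.2 and 16.8 FPKM at rest and at 40.4 and 50.3 after activation (1.35 ± 0.174, adjusted p = 0.00106). Neither overlapped between the groups, and the resting values of Ipo7 were almost the same. Kpnb1, importin beta 1, had the highest activated level of the importins: 35.9 and 34.6 FPKM at rest and 60.4 and 91.3 after activation (1.06 ± 0.233, adjusted p = 0.00908). Its call was lost without resting replicate 2.

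Ipo11 had 3.58 and 4.94 FPKM at rest and 7.85 and 11.6 after activation (1.02 ± 0.226, adjusted p = 0.00937). Ipo4, a carrier of histones, had 4.91 and 5.75 FPKM at rest and 8.09 and 13.2 after activation (0.85 ± 0.233, adjusted p = 0.0207). Ipo9, another histone carrier, had 10.1 and 10.2 FPKM at rest and 14.4 and 20.0 after activation (0.70 ± 0.186, adjusted p = 0.0188). The calls of Ipo4 and Ipo9 were each lost without either resting replicate or without activated replicate 2. Ipo13, which works in both directions, did not pass the test, with 7.91 and 8.84 FPKM at rest and 7.41 and 7.62 after activation (−0.14 ± 0.147, adjusted p = 0.455). Nor did Ipo8, with 11 and 11.9 FPKM at rest and 9.03 and 11.9 after activation (−0.13 ± 0.175, adjusted p = 0.557).

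Of nucleoporins, importins and exportins, the exportins had the smallest median difference. Xpo1, the general exporter of proteins with a leucine-rich export signal, had 34.1 and 38.4 FPKM at rest and 49.2 and 61.0 after activation (0.58 ± 0.189, adjusted p = 0.0371). Xpo4 had 4.45 and 3.32 FPKM at rest and 7.42 and 12.3 after activation (1.12 ± 0.249, adjusted p = 0.00924). Xpo5, which exports precursors of microRNAs, had 6.87 and 6.35 FPKM at rest and 8.45 and 11.2 after activation (0.50 ± 0.175, adjusted p = 0.0493). The groups did not overlap in these 3 genes. Xpo1 and Xpo5 were not called when values were rescaled to the same sum or by quantiles, nor without resting replicate 1, resting replicate 2 or activated replicate 2. The call of Xpo5 was also lost in limma without its trend and robust options, and that of Xpo4 without resting replicate 2.

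Xpo7 had 4.49 and 4.63 FPKM at rest and 4.99 and 7.44 after activation (0.36 ± 0.201, adjusted p = 0.173). Xpo6, the exporter of actin with profilin, had 27 and 27.1 FPKM at rest and 24.2 and 29.3 after activation (−0.02 ± 0.167, adjusted p = 0.923). Xpo6 was thus among the more abundant carriers at rest, and its activated samples lay on either side of the resting values.

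The activated replicates differed from each other in a directed way. Replicate 2 was above replicate 1 in 37 of 37 genes, where this held for 56.4% of all tested genes, and the median log2 ratio of the replicates was 0.39 for these genes and 0.05 for all. Between the resting replicates, replicate 2 was higher in 25 of 37, beside 61.9% of all tested genes, with a median of 0.11 beside 0.06 for all. The sums of FPKM were 285068 and 285129 in the activated samples. Whether it follows the 1.6-fold difference in depth was not tested.

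**Figure D4:**
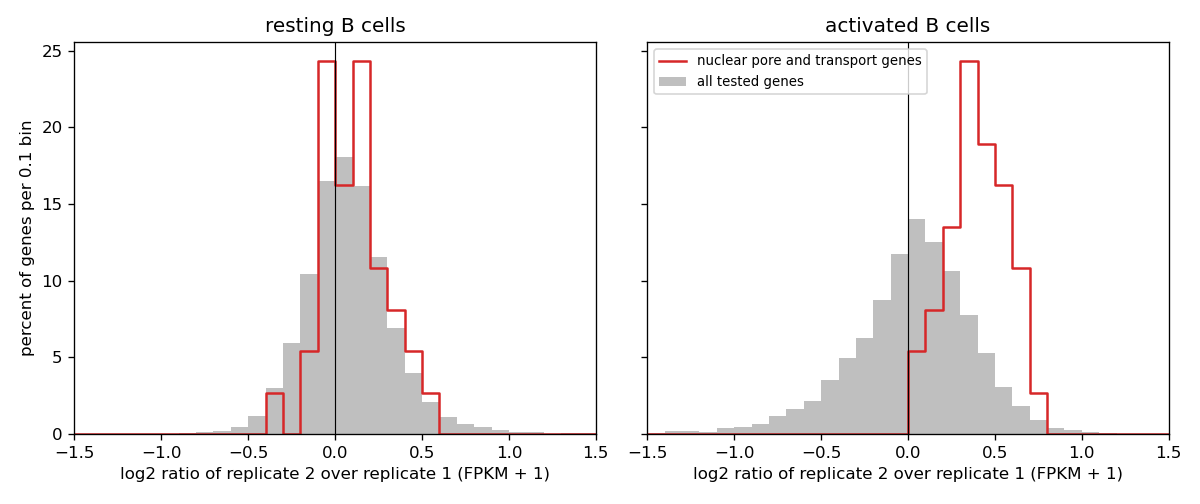
Distribution of the log2 ratio of replicate 2 over replicate 1 (FPKM + 1) among the 37 genes (red line) and all tested genes (grey), as percent of genes per bin, for resting (left) and activated cells (right). The red line lies wholly above 0 in activated cells, where its median is 0.39.

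Genes of the same pathways that lie outside the symbol rule were described from lists. Of 12 other pore proteins, 6 rose and none was called lower, beside 28.2% and 26.2% of all tested genes. The median difference over the 12 was 0.57. Those that rose include Tmem48 (the membrane protein Ndc1, 2.06 ± 0.235), Aaas (1.14 ± 0.154), Sec13 of the Y complex (1.10 ± 0.217) and Nupl2 (0.73 ± 0.173). Tmem48 went from 1.80 and 2.70 FPKM to 10.1 and 15.1. Seh1l (0.26 ± 0.173) and Ahctf1 (0.27 ± 0.148) were among the 6 not called. In the Ran cycle 5 of 6 genes rose, beside 28.2% of all tested genes called higher. Ran itself had 21.0 and 23.0 FPKM at rest and 58.7 and 81.8 after activation (1.62 ± 0.209), and Rcc1, the exchange factor that loads Ran with GTP in the nucleus, had 8.81 and 8.10 FPKM against 28.9 and 52.5 (2.08 ± 0.271). Ranbp1 (1.82 ± 0.284) and Rangap1 (1.49 ± 0.211), which help hydrolyse GTP on Ran in the cytoplasm, also rose. Over the 6 listed Ran cycle genes, the activated samples lay above the resting ones in 5, beside 41.5% of all tested genes, and overlapped them in 1.

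Among 5 tested carriers with other names 2 rose, near the 28.2% of all tested genes: Xpot, the exporter of transfer RNA (1.49 ± 0.156), and Tnpo2 (0.68 ± 0.178). Of 15 genes for messenger RNA export, 8 rose, among them Alyref (1.42 ± 0.162), Thoc3 (1.03 ± 0.193), Thoc7 (0.82 ± 0.152) and Ddx19a (0.76 ± 0.168). Nxf1, the main export receptor for messenger RNA, moved the other way, from 46.4 and 44.5 FPKM at rest to 31.3 and 33.7 after activation (−0.47 ± 0.163, adjusted p = 0.0459). This call was lost with any 1 of the 4 samples left out. Its cofactor Nxt1 differed by 0.56 ± 0.177 and was called higher, a call lost by quantile normalization and without resting replicate 1, resting replicate 2 or activated replicate 2. Of 8 tested genes of the lamina and its links to the cytoskeleton, 4 rose and 3 fell, where 28.2% and 26.2% of all tested genes were called. Lmnb1, lamin B1, had 14.4 and 14.9 FPKM at rest and 70.9 and 96.5 after activation (2.42 ± 0.198), while Sun2, which links the lamina to the cytoskeleton, had 56.6 and 62.5 FPKM against 21.4 and 24.5 (−1.34 ± 0.171) and Sun1 differed by −0.82 ± 0.146. Emd, emerin of the inner nuclear membrane, also rose (0.83 ± 0.165). In these lists the calls of Nupl2, Sec13, Tnpo2, Thoc7, Ddx19a and Emd were each lost with some sample left out.

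In activated cells, the loci of the 37 tested genes were open and marked, as were most loci of tested genes. With 1 kb added on both sides, a FAIRE peak lay at 37 of 37 loci (92.5% of all tested genes), an H3K27ac peak at 37 (89%) and an H3K4me3 peak at 36 (90.6%). The locus without H3K4me3 was Kpna1, which had such a peak when 5 kb was added instead (37 of 37 loci, 92.4% of all tested genes). With 1 kb added, STARR peaks lay at 25 of 37 (60.8%), and STARR peaks within FAIRE peaks at 24 (56.3%). Such peaks were thus common at tested genes in general. The lists pool replicates, so no spread can be given.

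A strand, and so a 5′ end, was known for 29 of the 37 genes. Within 1 kb of it, FAIRE was found at 29 of 29 (87.6% of tested genes with a strand), H3K27ac at 29 (85.4%), H3K4me3 at 28 (88.8%) and STARR at 18 (50.8%), the same 18 when limited to STARR in FAIRE (48.9%). At Nup160, the remaining gene, the nearest H3K4me3 peak began 1408 bases inside the gene. The widest H3K4me3 peaks were those of Nup62 at 4940 bases, Nup153 at 4434 and Xpo1 at 4189, beside a median of 2080 over the genes.

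STARR peaks, DNA that drives its own transcription in a plasmid, numbered 37 at these loci, 29 of them at genes of known strand, and 13 of these 29 covered the 5′ end. Those 13 belonged to Ipo8, Ipo9, Ipo11, Kpna2, Kpna4, Kpnb1, Nup50, Nup54, Nup88, Nup93, Nup107, Nup188 and Xpo6. At Kpna2 the only peak was at chr11:106860760-106861060 (mm9), its centre 71 bases before the 5′ end. Kpnb1 had 2, centred 100 bases before and 719 bases after the 5′ end. At Nup62, Nup98, Nup153, Ipo13 and Xpo1 the peak lay just upstream of the 5′ end, for Xpo1 with its centre at 485 bases. Nup210 had 4 STARR peaks, all within the gene, from 6308 to 36726 bases after the 5′ end and none near it. The 2 peaks of Nup160 were also inside the gene.

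Among genes of unknown strand, Nup43, Nup85, Kpna1, Kpna3 and Kpna6 had STARR peaks, with 3 at Kpna3. By class, a STARR peak lay at all 5 importin alpha genes and at 2 of 5 exportins, beside 60.8% of all tested genes. It also lay at 3 of 3 central channel genes and 2 of 2 nuclear basket genes. No STARR peak at Kpna1 was within a FAIRE peak. None lay at Ipo4, Ipo5, Ipo7, Nup35, Nup37, Nup133, Nup155, Nup205, Nup214, Xpo4, Xpo5 or Xpo7. Of the 25 genes with a STARR peak, 16 were called higher (median difference 0.65), and of the 12 without, 10 were (0.86). Genes with large differences were found on both sides. Nup37 (1.62), Ipo5 (1.55) and Ipo7 (1.35) lacked a STARR peak, while Kpna2 (2.49), Nup62 (1.49) and Nup85 (1.36) had one. The difference between these sets of genes was not tested.

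**Figure D5:**
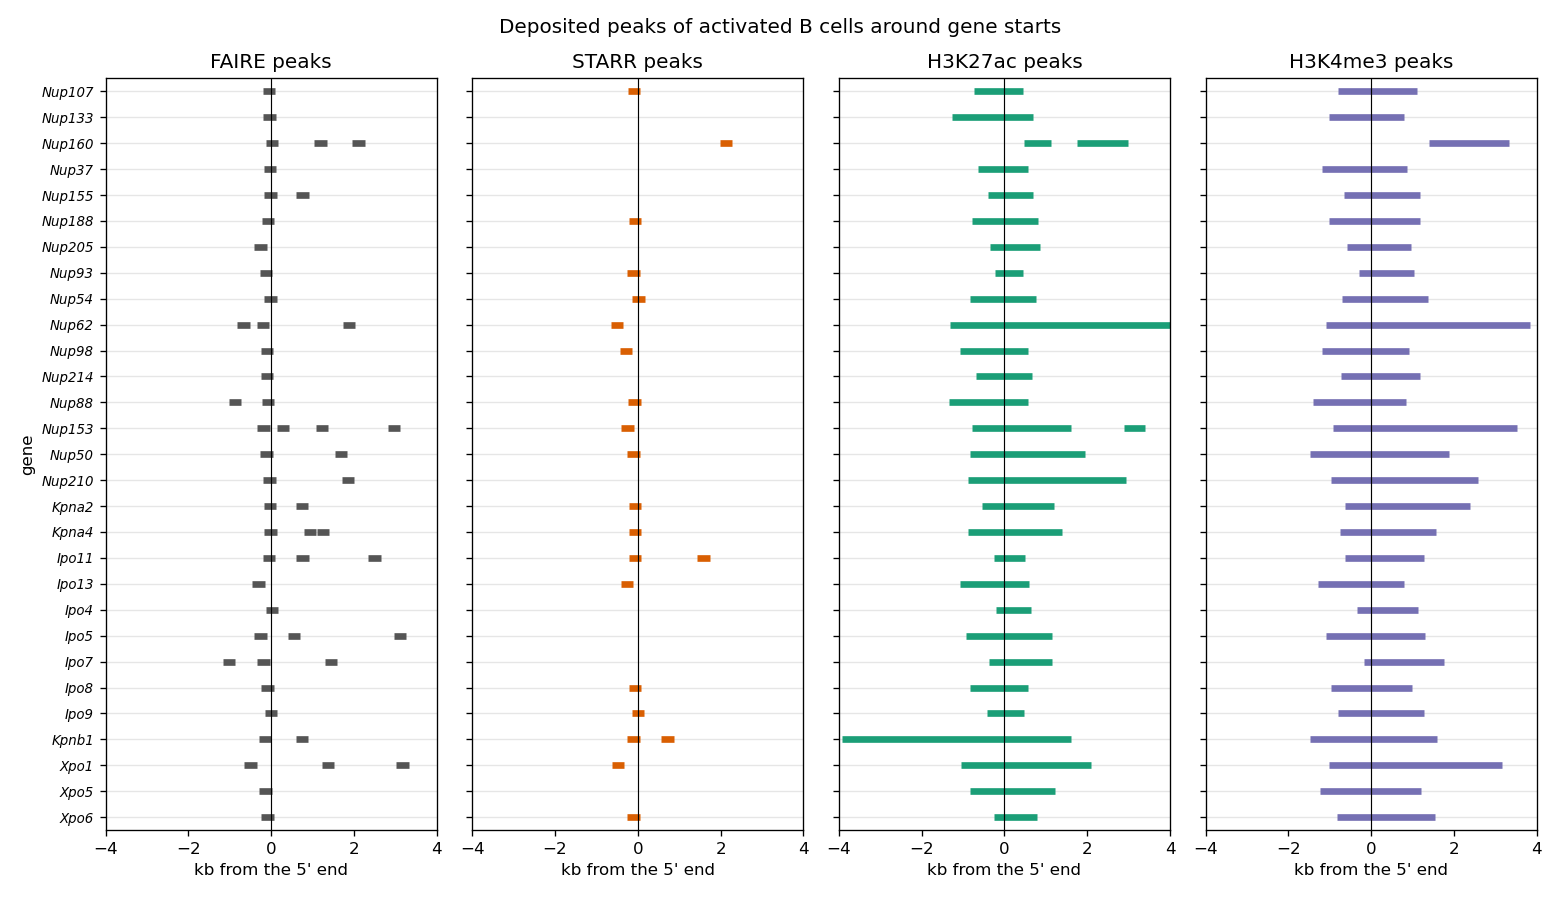
Deposited peaks of activated cells within 4 kb of the 5′ end for the 29 genes of known strand, by assay. The horizontal axis is distance in kb, positive into the gene, and each bar is a peak. FAIRE, H3K27ac and H3K4me3 bars lie at or near 0 in almost every gene, and STARR bars are missing in 11 genes within 1 kb.

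Hi-C contacts, pairs of regions found together in the nucleus, came from a list that the authors had filtered for enhancers and promoters. Contacts were listed at 36 of the 37 loci (81% of all tested genes), Nup35 being the exception. The 37 loci had 216 contacts, with a median of 5 per gene beside 4 over all tested genes. The same pair of regions can recur at several anchor sizes, and 123 of the 216 rest on 5 or 6 reads. The median was 5 both among the 26 genes called higher and among the 11 others. Partner anchors held a STARR peak in 158 of the 216 contacts (73.1%), a share that the authors' filter for enhancers can set, and anchors are up to 5000 bases wide.

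The 5 genes with the most contacts were Ipo13 with 19, Kpnb1 with 17, Kpna6 and Nup160 with 13 each and Nup210 with 11. In 4 of the 216 rows, at Ipo13 (208 reads), Kpnb1 (245), Nup210 (113) and Xpo1, the anchors overlap each other, and without these the counts of Ipo13, Kpnb1 and Nup210 are 18, 16 and 10. In 40 rows the anchor taken as the gene's own touches only the added 1 kb and not the gene. They include the rows below of Ipo13 with 12 reads, of Kpnb1 with Brca1 and Nbr1, and of Kpna6 with Rcc1. Some of the rows of Nup160 with Ptprj are also among them. So are some rows within the loci of Kpnb1 and Nup210, where the other anchor does lie in the gene. Ipo13 reached Dph2 and Atp6v0b with up to 12 reads, and also Kdm4a, Elovl1 and Ybx1. Kpnb1 reached Npepps, Psmb3, Med1, Cdc6 and, at 4358794 bases with 5 reads, Brca1 and Nbr1. Kpna6 reached Tmem39b with 88 reads, Hdac1 with 16, and at 2566194 bases Rcc1 with 5. All 13 partner anchors of Nup160 held a STARR peak, and 3 of them lay in Ptprj, the neighbouring phosphatase gene. Nup210 had 3 contacts between separate anchors within its own locus, with up to 133 reads, at anchors that hold its internal STARR peaks, and reached the replication gene Mcm2 at 2207449 bases with 7 reads.

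Kpna2 had 4 contacts, the strongest to 1810010H24Rik at 29763 bases with 61 reads and the most distant to Top2a, the topoisomerase of dividing cells, at 7971785 bases with 5 reads. The only row listed for Xpo1, with 151 reads, joins a pair of overlapping anchors that both end before the gene, so Xpo1 had no contact between separate regions.

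The 29 promoters of known strand were searched on both strands from 250 bases before to 50 bases after the start for the CCAAT box, the E-box and the NRF1 site, with 1 promoter per symbol. No matches of different motifs overlapped. The CCAAT box was found in 16 of 29 (55.2%), beside 38.0% of all 27025 promoters and 40.0% of those of tested genes. The E-box was found in 5 (17.2%, beside 7.24% and 10.9%), namely Ipo4, Ipo7, Nup54, Nup93 and Nup188. The NRF1 site was found in 4 (13.8%, beside 0.981% and 2.41%), namely Nup50, Nup62, Nup107 and Xpo5. The median G and C content was 65.3% in these promoters and 60.7% in those of tested genes, with a median of 28 and 21 CpG pairs, and the part of base composition in these shares was not tested.

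All 5 genes with the E-box and all 4 with the NRF1 site were called higher, where 21 of the 29 genes were called higher and 8 were not called. The CCAAT box was found in 12 of the 21 and in 4 of the 8. Whether any of these motifs goes with a rise was not tested. A match describes letters in this window and is not a measured binding site, and promoters on GRCm38.p6 could not be laid over peaks on mm9.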

How the data were processed

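RNA was measured in 2 resting and 2 activated samples of a series of 34. Per the submitters' processing notes, reads were handled with STAR, TopHat2, Bowtie, Bowtie2, bedtools and HOMER on mm9, without stating which tool made which file. The deposited RNA values carry no unit name and were treated as FPKM made by the authors, because they are not whole numbers and low values step with the gene. Each deposited Hi-C contact has a read count over pooled replicates and a z-score. This score was computed by the authors, per the file headers, and was not used. The deposited list holds 32142 rows, of which 4239 exact duplicates were removed. Peak lists give positions only. Starts in the RNA table count from 0, as spans of 472 of 480 microRNA rows equal the hairpin length, and are printed with 1 added.

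Genes that reached 1 FPKM in 2 or more samples entered limma 3.58.1 (R 4.3.3, trend and robust) on log2(FPKM + 1), with no block, and called at a Benjamini-Hochberg adjusted p under 0.05 over all tested genes. The fit was checked on simulated data of 10863 genes, of which 100 changed 2-fold and 100 changed 4-fold. It called 18 and 73 of these, and 4 unchanged genes. Many more genes were called in the real data, so these shares need not hold there. Locus and peak counted as shared from 1 base of overlap, with the locus extended by 1 kb. Strands and promoters came from a RefSeq table on GRCm38.p6, matched by symbol for 31 of the 41 genes. Named with values are all tested genes of the symbol rule. Of each other list up to 4 called genes with the largest change are named. Those called against the majority of their list are named too, except Syne1, whose symbol stands on 2 rows. Nxt1, Seh1l and Ahctf1 were named after their values were seen. For loci, genes with a STARR peak and the 5 with the most contacts are named, and the remaining contacts named were also chosen after their values were seen. The genes and lists were chosen with earlier results of these data known. The alternatives were another pseudocount, other filters and scalings, a replicate block, each sample left out, limma without its options, and other windows around loci. A marker of the lists is not reported here.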

Additional observations from a re-analysis of the deposited data

How the results depend on the processing

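Under 11 alternatives for RNA, 9 genes (Nup37, Nup43, Nup62, Nup85, Nup93, Nup205, Kpna2, Ipo5 and Ipo7) kept their call in all 10 except the fit with no filter on low values. That fit adds 7128 rows at 0 in every sample, which have no spread, and calls 0 nucleoporins, 0 importins and 0 exportins (64 of all genes higher and 233 lower). Leaving out 1 sample gave 11 to 29 of the 37 genes called higher, 0 to 1 lower, 6 to 17 nucleoporins, 4 to 8 importins and 0 to 4 exportins, with 1735 to 2859 of all genes higher and 1191 to 2834 lower. Rescaling to the same sum and quantile normalization each left 1 exportin, with 1 gene (Kpna1) and 2 genes (Kpna1, Kpna4) called lower. The calls of Nup50, Nup54, Nup88, Nup107, Nup133, Nup210 and Ipo11 were each lost with some resting replicate left out. The cause of these changes was not tested.

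Replicate numbers are not said to pair samples. Deviations of same-numbered samples correlated at 0.124 across genes (Spearman 0.15). With a replicate block, 27 genes were called higher (Nup98 added) and 1 lower (Kpna1), and 3317 of all genes were higher.

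Small differences changed sign. Leaving out 1 sample gave −0.13 to 0.33 for Nup160, −0.31 to 0.0545 for Ipo8 and −0.16 to 0.11 for Xpo6, and in the other lists −0.0091 to 0.25 for Mcm3ap, −0.0622 to 0.11 for Ddx39b, −0.11 to 0.19 for Ranbp3 and −0.13 to 0.0473 for Thoc1. Rescaling to the same sum gave −0.0765 for Ddx39b and −0.0596 for Ranbp3, and quantile normalization −0.17 for Ddx39b, −0.12 for Ranbp3 and −0.0781 for Poldip3. The share of Kpna6 differed by 1.40 percentage points, and by −0.268 to 3.07 with a sample left out. Other windows around loci kept every count of genes with a peak or contact within 1.5 times. With no extension, a STARR peak lay at 19 of 37 loci (51.4%), near the 50.9% of all tested genes. STARR peaks within FAIRE peaks then lay at 18 (48.6%), beside 46.3%. Depth per sample is unknown, and 2 samples a group limit every test.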
